A study of Mus musculus with 18 samples.

Results

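The colony-stimulating factors and their receptors were followed through 3 stages of macrophage (MΦ) recruitment to the inflamed lung. The group comprised 9 genes, picked by symbol from the 21254 genes of the deposited count table. The ligand genes were Csf1, Il34, Csf2 and Csf3, and the receptor genes were Csf1r, Csf2ra, Csf2rb, Csf2rb2 and Il3ra. All 9 passed the filter on low counts and were among the 15811 genes tested. Monocyte-derived MΦs (moMs, CD45+ CD11b+ MHC-II- Ly6C+), transitional interstitial MΦs (tnsIMs, MHC-II+ Ly6C+) and mature interstitial MΦs (matIMs, MHC-II+ Ly6C-) had been sorted from mouse lungs for bulk RNA sequencing. Lungs were taken 24 h after nebulization of 12.5 mg of Pseudomonas aeruginosa lipopolysaccharide (LPS) in 5 ml of PBS for 15 min, so every library came from an LPS-treated animal and untreated lungs were not analysed here. WT mice were Ez+/+ x Cx3cr1 Cre+ and Ezr-KOm mice were Ez fl/fl x Cx3cr1 Cre+, so that both genotypes carried Cre in the Cx3cr1 gene (B6.Cx3cr1tm1.1(cre)Jung/J) and ezrin was targeted in Cx3cr1-expressing cells. Mice of both sexes on the C57BL/6 background, 3 to 5 months old, were used, and each of the 6 groups held 3 libraries.

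CSF1 (M-CSF) and IL-34 are separate ligands of a single receptor tyrosine kinase, CSF1R, on which most tissue macrophages depend for survival. GM-CSF, encoded by Csf2, signals through an alpha chain (Csf2ra) and the common beta chain (Csf2rb) and is required in the lung for alveolar macrophage development. Mice carry a near copy of the common beta chain, Csf2rb2, that serves the IL-3 receptor together with Il3ra, and G-CSF, encoded by Csf3, drives neutrophil production through CSF3R.

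Library totals ran from 16512783 to 48460995 counts. Ezr, the targeted gene, had mean levels of 531, 586 and 661 CPM (TMM-scaled read counts relative to library size) in WT moMs, tnsIMs and matIMs, and of 231, 191 and 135 CPM in the corresponding Ezr-KOm groups. The 3 gates differed in the markers of their own identity and of other lung cells. In WT, classical monocyte markers (5 genes) summed to 9104 to 10020 CPM in moMs, 3709 to 6371 in tnsIMs and 2044 to 2749 in matIMs, whereas the 5 MHC class II genes rose from between 4523 and 6135 to between 40438 and 55841. The 8 macrophage markers were present in every group, with sums of 2277 to 3745 CPM, but single markers moved in opposite directions. From WT moMs to matIMs the means fell for Fcgr1 (251 to 114 CPM), Itgam (278 to 160), Adgre1 (427 to 305), Cd68 (1038 to 774) and Mertk (24.1 to 18.3). They rose for C1qa (91.8 to 307), C1qb (326 to 751) and C1qc (144 to 424). None of 8 epithelial markers was at 0 in any group, and their sum peaked in tnsIMs.

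Csf1r and Csf2ra had the highest levels of the group. On a scale of CPM per kilobase of exon, WT moMs had 349 ± 45.6 for Csf1r, 292 ± 32.0 for Csf2ra, 72.7 ± 6.58 for Csf2rb, 22.3 ± 1.13 for Csf2rb2 and 3.10 ± 0.50 for Il3ra (SD, n = 3). The ligands on the same scale were at 39.5 ± 2.10 for Csf3, 10.3 ± 2.32 for Csf1, 1.93 ± 0.48 for Csf2 and 0.026 ± 0.014 for Il34. In WT matIMs Csf1r (185 to 221) and Csf2ra (207 to 252) overlapped, while in WT moMs the Csf1r libraries (299 to 387) reached further up than the Csf2ra ones (261 to 325). The GM-CSF alpha chain had a higher level per kilobase than the beta chain in all 6 groups, with lowest Csf2ra libraries of 207 to 310 and highest Csf2rb libraries of 67.3 to 81.3. Length here is the union of all annotated exons of a gene, for Csf2rb 7277 bases against 4764 in its canonical transcript. Comparisons between genes on this scale depend on that choice.

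Il34, Csf2 and Csf1, 3 of the 4 ligand genes, had their highest level in tnsIMs, and the other, Csf3, was high in both Ly6C+ populations and low in matIMs. Il34 was represented by 1, 2 and 4 reads in the 3 WT moM libraries, by 32, 40 and 54 in tnsIMs and by 5, 2 and 7 in matIMs. The groups of tnsIMs did not overlap with either neighbour, and moMs and matIMs did. The fitted log2 fold change was 4.21 (SE 0.63) from moMs to tnsIMs and -3.35 (SE 0.58) from tnsIMs to matIMs. Because the moM libraries held so few reads, the ratio of pooled tnsIM to moM levels, 18.5, had a counting interval of 8.72 to 47.0. In Ezr-KOm mice the reads were 4, 1 and 8 in moMs, 47, 125 and 30 in tnsIMs and 8, 11 and 13 in matIMs, and the same contrasts gave 3.34 (SE 0.58) and -2.24 (SE 0.52). All 4 differences passed the edgeR quasi-likelihood test (Benjamini-Hochberg adjusted p from 0.000114 to 0.00452). Il34 passed the low-count filter only through its tnsIM libraries, so it had to differ between populations to be tested at all.

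Csf2, the GM-CSF gene, was low but followed the same course. Its levels in WT were 1.71, 1.82 and 1.10 CPM in moMs, 5.76, 6.47 and 4.39 in tnsIMs and 1.64, 2.22 and 1.12 in matIMs, from 28 to 138 reads per library. Every tnsIM library exceeded every moM and matIM library. The log2 fold change was 1.84 (SE 0.46, adjusted p = 0.00757 by edgeR) from moMs to tnsIMs and -1.74 (SE 0.46, adjusted p = 0.0105) from tnsIMs to matIMs. In Ezr-KOm mice Csf2 was at 2.83, 2.82 and 0.573 CPM in moMs, 6.07, 6.92 and 6.02 in tnsIMs and 1.00, 2.48 and 1.09 in matIMs, with log2 fold changes of 1.61 (SE 0.45, adjusted p = 0.0198) and -2.05 (SE 0.45, adjusted p = 0.00314). Again the tnsIM libraries stood above all others. With counts this low single libraries mattered. Without WT matIM replicate 3 the tnsIM-to-matIM value was -1.54 (adjusted p = 0.0505), and the Ezr-KOm moM-to-tnsIM value was 1.18 (adjusted p = 0.0665) without Ezr-KOm moM replicate 3 and 1.54 (adjusted p = 0.0621) without Ezr-KOm tnsIM replicate 2.

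Csf1 had the same peak at a higher level. In WT it was at 72.6, 63.1 and 45.7 CPM in moMs, 149, 208 and 217 in tnsIMs and 61.7, 61.9 and 66.3 in matIMs. The tnsIM libraries lay above the rest without overlap, 3.16-fold higher than moMs and 3.02-fold higher than matIMs, and moMs and matIMs overlapped (log2 fold change 0.07, SE 0.21). In Ezr-KOm mice the rise to tnsIMs was 2.24-fold.

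Csf3, the G-CSF gene, was the ligand that did not peak in tnsIMs. Its WT levels were 55.7, 59.0 and 53.0 CPM in moMs, 35.8, 71.8 and 31.7 in tnsIMs and 8.20, 15.5 and 8.16 in matIMs. The moM and tnsIM libraries overlapped, and each matIM library was below all of them. From moMs to matIMs Csf3 was 5.26-fold lower (log2 fold change -2.39, SE 0.43, adjusted p = 0.000352 by edgeR), and from tnsIMs to matIMs it was 4.35-fold lower (-2.12, SE 0.42, adjusted p = 0.00129). The Ezr-KOm libraries gave 50.2, 106 and 58.4 CPM in moMs, 40.3, 86.4 and 41.8 in tnsIMs and 7.89, 22.9 and 11.6 in matIMs, with decreases of 5.05-fold and 3.97-fold. The difference between moMs and tnsIMs did not pass the test in either genotype (-0.27, 95% interval -1.11 to 0.57, in WT and -0.35, -1.18 to 0.49, in Ezr-KOm).

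**Figure D1:**
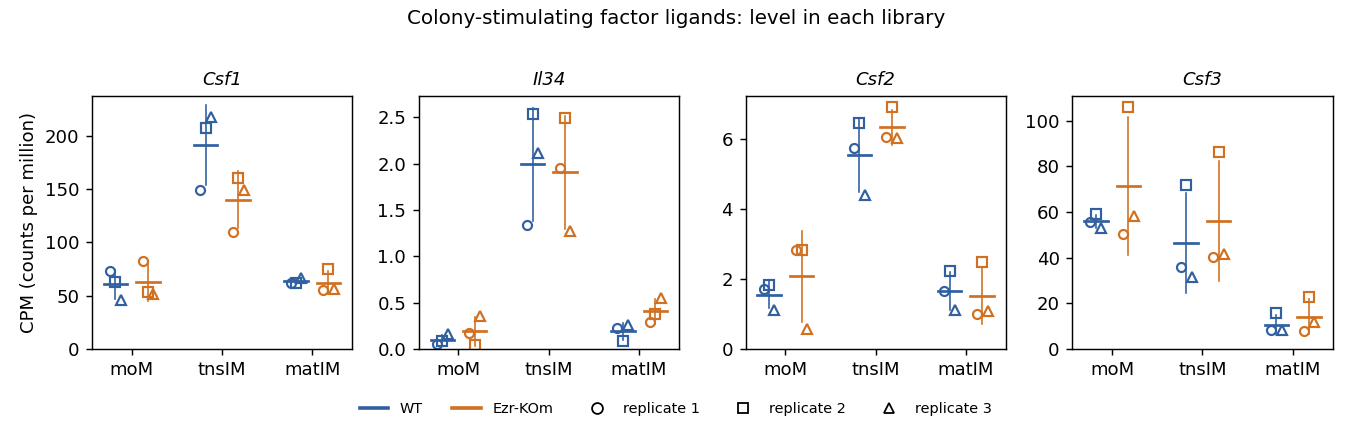
Level of the 4 ligand genes in CPM (vertical axes, from 0) in each of the 18 libraries, by population and genotype; symbols mark the replicate number, horizontal bars the group mean and vertical bars ± 1 SD (n = 3). Csf1, Il34 and Csf2 are highest in all 6 tnsIM libraries, and Csf3 is lowest in matIMs.

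Markers of structural lung cells moved with the tnsIM peak. The 8 epithelial markers, among them the surfactant genes Sftpc and Sftpb, summed to 122 to 155 CPM in WT moMs, 2883 to 4473 in WT tnsIMs and 574 to 632 in WT matIMs. In Ezr-KOm mice the sums were 86.1 to 198, 1948 to 3640 and 364 to 528 CPM. The 6 endothelial markers summed to 276 to 467 CPM in WT tnsIMs against 72.5 to 120 in WT moMs and matIMs, and the 5 fibroblast markers to 79.3 to 99.5 against 12.4 to 35.5. Their part in the levels of Il34, Csf2 and Csf1 was not tested. In bulk libraries, fewer cells of a type and less RNA per cell cannot be told apart.

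**Figure D2:**
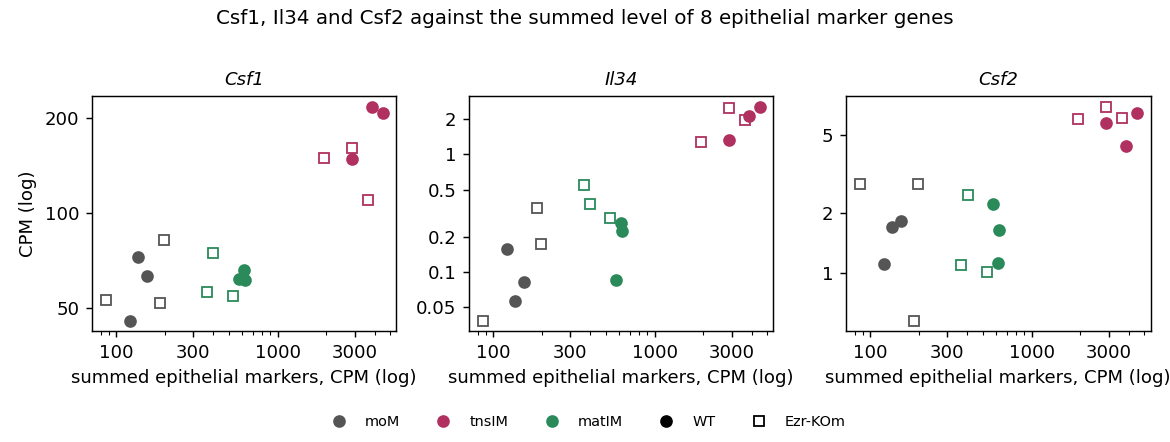
Csf1, Il34 and Csf2 (vertical axes, CPM, log scale) against the summed level of 8 epithelial marker genes (horizontal axes, CPM, log scale), 1 point per library (n = 18), colored by population, filled for WT and open for Ezr-KOm. The 6 tnsIM libraries lie apart at the upper right, with epithelial sums of 1948 to 4473 CPM.

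The promoters of Il34, Csf2 and Csf1 are shown because these 3 ligand genes peaked together in tnsIMs. Each sequence is the 250 bases before the start of the canonical transcript, on the gene's strand, read from GRCm39. Capitals mark matches on either strand to an NF-kB consensus, the AP-1 motif TGANTCA, the C/EBP motif TTGCNNAA or the PU.1 motif GAGGAAGT. The NF-kB consensus was GGGRNNYYCC, with R for A or G, Y for C or T and N for any base.
Il34, chr8:111532585-111532834, minus strand: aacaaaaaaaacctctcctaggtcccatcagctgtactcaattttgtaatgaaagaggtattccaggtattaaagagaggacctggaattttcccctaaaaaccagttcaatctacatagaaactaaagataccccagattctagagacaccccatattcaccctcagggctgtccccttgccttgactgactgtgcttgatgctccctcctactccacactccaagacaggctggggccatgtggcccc
Csf2, chr11:54140494-54140743, minus strand: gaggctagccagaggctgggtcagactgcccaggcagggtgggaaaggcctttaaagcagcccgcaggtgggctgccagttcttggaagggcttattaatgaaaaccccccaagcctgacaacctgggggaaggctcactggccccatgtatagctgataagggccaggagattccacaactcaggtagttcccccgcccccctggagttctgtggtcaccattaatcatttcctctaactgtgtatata
Csf1, chr3:107667807-107668056, minus strand: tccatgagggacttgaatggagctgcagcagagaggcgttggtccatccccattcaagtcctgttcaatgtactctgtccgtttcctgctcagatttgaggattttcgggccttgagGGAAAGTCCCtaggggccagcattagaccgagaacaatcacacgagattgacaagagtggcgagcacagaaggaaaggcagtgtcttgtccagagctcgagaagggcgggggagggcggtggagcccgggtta
Csf1 held 1 NF-kB match (GGAAAGTCCC, 133 to 124 bases before the start) and no match to the other motifs. The letters of the 4 motifs were not found in these windows of Il34 and Csf2. Looser or variant forms of the motifs were not searched, so such elements may be present. Among 21738 promoter windows of protein-coding genes of the same length, 7.62% held the NF-kB, 6.18% the AP-1, 9.34% the C/EBP and 2.08% the PU.1 letters. The windows are descriptions of sequence, and binding was not measured.

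Among the receptors, Csf1r fell in matIMs, Csf2ra showed a smaller decrease that depended on single libraries, and no change of Csf2rb, Csf2rb2 or Il3ra passed the test. Csf1r, the receptor shared by CSF1 and IL-34, was at 2199.6, 2852 and 2663 CPM in WT moMs, 2388, 2288 and 2387 in tnsIMs and 1362, 1430.3 and 1627 in matIMs. All matIM libraries were below all moM and tnsIM libraries. The decrease was 1.75-fold against moMs (log2 fold change -0.80, SE 0.12, adjusted p = 8.68e-05 by edgeR) and 1.60-fold against tnsIMs (-0.68, SE 0.12, adjusted p = 0.000604). In Ezr-KOm mice Csf1r was at 2586, 2571 and 2707 CPM in moMs, 2139, 2219 and 2502 in tnsIMs and 1342, 1401 and 1334 in matIMs, again with matIMs below the rest (-0.95, SE 0.12, and -0.75, SE 0.12). From moMs to tnsIMs Csf1r differed by -0.13 (95% interval -0.39 to 0.13) in WT and by -0.20 (-0.46 to 0.06) in Ezr-KOm. Csf1r was thus lower in matIMs than in tnsIMs, as was Csf1. Il34 was lower as well, but it passed the low-count filter only through its tnsIM libraries. Against moMs, Csf1r was lower in matIMs, whereas Csf1 was not (log2 fold change 0.07 in WT).

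Csf2ra, the ligand-specific chain of the GM-CSF receptor, was at 950.3, 763 and 850.1 CPM in WT moMs, 872, 1308 and 714 in tnsIMs and 616, 738 and 605 in matIMs. The matIM libraries were below the moM ones without overlap, and overlapped with tnsIMs. The difference from tnsIMs to matIMs passed the threshold narrowly (log2 fold change -0.56, SE 0.19, adjusted p = 0.0484 by edgeR) and rested on the highest tnsIM library, since without WT tnsIM replicate 2 it was -0.31 (adjusted p = 0.302). It was also lost without WT tnsIM replicate 1 (-0.65, adjusted p = 0.0565), WT matIM replicate 1 (-0.56, adjusted p = 0.114) or WT matIM replicate 3 (-0.53, adjusted p = 0.129). In Ezr-KOm mice Csf2ra was at 1022, 906 and 965 CPM in moMs, 987, 1140.1 and 807 in tnsIMs and 618, 842 and 707 in matIMs. There the value was -0.44 (SE 0.19, adjusted p = 0.138), or -0.61 (adjusted p = 0.0491) without Ezr-KOm tnsIM replicate 3. Against moMs, Csf2ra in matIMs differed by -0.39 (95% interval -0.79 to 0.01) in WT and by -0.42 (-0.82 to -0.01) in Ezr-KOm. Neither passed the edgeR test after adjustment (adjusted p = 0.159 and 0.135).

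Csf2rb, the common beta chain through which GM-CSF signals, kept to a narrow range. Its WT libraries were at 583, 511 and 493 CPM in moMs, 457, 407 and 489 in tnsIMs and 483, 512 and 535 in matIMs. The tnsIM libraries were just below the moM ones without overlap, by -0.23 on the log2 scale (95% interval -0.53 to 0.07), and overlapped with matIMs. The 6 population contrasts of Csf2rb in the 2 genotypes lay between -0.23 and 0.18, with intervals from -0.53 to 0.48, so a change as large as that of Csf3 lay outside all of them. Csf2rb2 was at 106, 110.4 and 99.8 CPM in WT moMs, 135, 64.9 and 133 in tnsIMs and 123, 101 and 144 in matIMs, and its contrasts lay between -0.01 and 0.22 with intervals from -0.47 to 0.68. Il3ra, the IL-3 receptor alpha chain, was at 5.92 to 14.6 CPM in the WT libraries and 6.74 to 17.8 in the Ezr-KOm ones. Single libraries set that spread, namely WT matIM replicate 1 (14.6) and Ezr-KOm tnsIM replicate 2 (17.8), and its contrasts lay between -0.44 and 0.20 with intervals from -1.16 to 0.91.

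**Figure D3:**
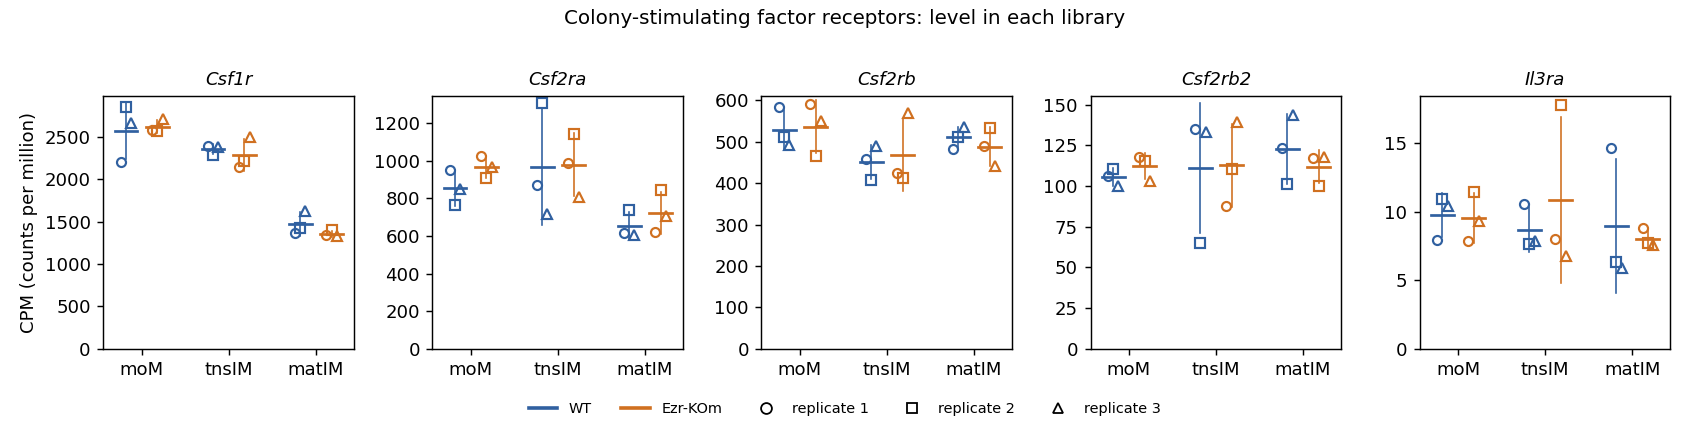
Level of the 5 receptor genes in CPM (vertical axes, from 0) in each of the 18 libraries, by population and genotype; symbols mark the replicate number, horizontal bars the group mean and vertical bars ± 1 SD (n = 3). Csf1r is lower in all 6 matIM libraries than in any other, Csf2ra is lower in part of them, and the libraries of Csf2rb, Csf2rb2 and Il3ra overlap across populations apart from Csf2rb in WT moMs and tnsIMs.

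The beta chain genes lie side by side on chromosome 15, Csf2rb at chr15:78209952-78238047 on the plus strand and Csf2rb2 at chr15:78166707-78189921 on the minus strand (GRCm39). Their canonical transcripts had coding sequences of 2688 and 2634 bases, identical at 2503 of 2628 aligned bases (95.2%). Of all 150-base windows, the read length used, 3.58% of those in the Csf2rb transcript occurred whole in that of Csf2rb2. Most windows of that length held at least 1 base that separates the copies, and the rest could not be assigned by sequence alone. The first pair of lines below shows a stretch of 90 coding bases without a difference (coding bases 662 to 751 of Csf2rb and 665 to 754 of Csf2rb2). The second pair shows the stretch with the most differences, 16 of 90 bases, in capitals (bases 308 to 397 and 311 to 400).
Csf2rb, alike: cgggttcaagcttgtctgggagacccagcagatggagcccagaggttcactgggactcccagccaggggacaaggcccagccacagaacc
Csf2rb2, alike: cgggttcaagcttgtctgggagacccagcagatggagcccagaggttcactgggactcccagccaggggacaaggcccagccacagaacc
Csf2rb, unlike: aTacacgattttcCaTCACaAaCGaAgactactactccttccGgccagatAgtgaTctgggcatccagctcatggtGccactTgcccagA
Csf2rb2, unlike: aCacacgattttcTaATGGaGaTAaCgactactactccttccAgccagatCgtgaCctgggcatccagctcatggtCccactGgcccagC
Reads that can come from either copy make the separate levels of Csf2rb and Csf2rb2 uncertain to that extent, and a fit with the copies summed gave no call for the sum.

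Other genes overlap some members on the opposite strand, and the library kit does not mark strand. Hmgxb3 covered 19.8% of the exon bases of Csf1r, and the lncRNA genes Gm38985 and Gm57329 covered 44.2% of Csf3 and 18.6% of Csf2 in a later annotation. Hmgxb3 had its own row in the count table, and the lncRNA genes had none. Reads from such an overlap cannot be assigned to a strand, so that these levels hold some uncertainty.

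Counted over the group, 3 of 9 genes were higher in WT tnsIMs than in moMs (Csf1, Il34 and Csf2) and none was lower, against 21.6% of all tested genes called in either direction and 13% called higher. From WT tnsIMs to matIMs, 6 of 9 were lower (Csf1, Il34, Csf2, Csf3, Csf1r and Csf2ra) and none was higher, against 18.5% called in either direction and 10.2% called lower. From WT moMs to matIMs, 2 of 9 were lower (Csf1r and Csf3), against 24.8% of all genes called in either direction and 11.4% called lower. In Ezr-KOm mice the counts were 3, 5 and 2 against 14.3%, 18.2% and 23.3% called in either direction (9.23% called higher, 9.85% lower and 10.7% lower), the 5 being those of WT without Csf2ra. Il34 is in the counts of the tnsIM contrasts although it had to differ to be tested. Without it they were 2 and 5 of 8 in WT and 2 and 4 of 8 in Ezr-KOm. The median log2 fold change of the members from WT tnsIMs to matIMs was -0.68, beside 0.04 for all tested genes, and it was 0.08 and -0.05 in the other WT contrasts, beside 0.01 in each. Groups without overlap occurred for 36%, 31.5% and 41.5% of all genes in the WT contrasts tnsIM against moM, matIM against tnsIM and matIM against moM, and for 28.7%, 31.2% and 39.9% in Ezr-KOm. The 3 contrasts of a genotype share groups and are not independent of each other.

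No colony-stimulating factor or receptor gene was called between genotypes. Of the 9 genes, 0 differed between Ezr-KOm and WT in moMs, tnsIMs or matIMs by the edgeR quasi-likelihood test with Benjamini-Hochberg adjustment, beside 0.171%, 0.164% and 0.152% of all genes. DESeq2 also called 0 of 9 in each population. By the study's rule for differentially expressed genes (unadjusted p under 0.05 and an absolute log2 fold change above 0.75), 0 of 9 passed, beside 2.51%, 1.83% and 2.4% of all genes. Without Ezr-KOm moM replicate 3 the number passing that rule in moMs was 1 (Csf2, log2 fold change 0.87). A single one of the 27 differences had an unadjusted p under 0.05, that of Csf1 in tnsIMs. Csf1 was at 109.9, 161 and 149 CPM in Ezr-KOm tnsIMs against 149, 208 and 217 in WT, and the groups overlapped. The log2 fold change was -0.45 (SE 0.21, 95% interval -0.89 to -0.01) with an adjusted p of 1.00 by edgeR. Csf1 was lower in Ezr-KOm in 3 of 3 pairs of tnsIM libraries with the same number, and a fit blocked by replicate number gave -0.45 (adjusted p = 0.895 by edgeR). The epithelial sum of the same libraries was 1948 to 3640 CPM against 2883 to 4473, and its part in the difference was not tested. The interaction of genotype with population gave -0.50 for Csf1 in tnsIMs against moMs and did not pass the test (edgeR, adjusted p of 1.00). No member passed the interaction test in any pair of populations, and neither did any gene of the table, while 233, 268 and 183 genes had an unadjusted p under 0.05.

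For Csf1r, Csf2ra, Csf2rb and Csf2rb2 the 12 differences between genotypes lay between -0.13 and 0.17 on the log2 scale, and their 95% intervals between -0.59 and 0.58. With Il3ra, a low receptor gene, the 15 intervals reached from -0.88 to 1.05. For Csf1r the interval was -0.23 to 0.29 in moMs, -0.30 to 0.22 in tnsIMs and -0.38 to 0.14 in matIMs. Csf3 had positive values in the 3 populations (0.36, 0.28 and 0.41) with intervals that reached from -0.56 to 1.28. These values turned to -0.04, -0.17 and -0.13 without replicate 2 of the Ezr-KOm group concerned. Csf2 had 0.43, 0.20 and -0.11 with intervals from -1.08 to 1.40. Il34 was the only gene whose genotypes did not overlap in a population, in matIMs, where 8, 11 and 13 reads in Ezr-KOm stood against 5, 2 and 7 in WT. In CPM these were 0.287, 0.378 and 0.545 against 0.222, 0.0854 and 0.261. The log2 fold change was 1.05 (SE 0.60, 95% interval -0.21 to 2.31, adjusted p of 1.00 by edgeR), and 10.1% of all genes had no overlap in that comparison (8.52% in moMs and 5.81% in tnsIMs, where no member lacked overlap).

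**Figure D4:**
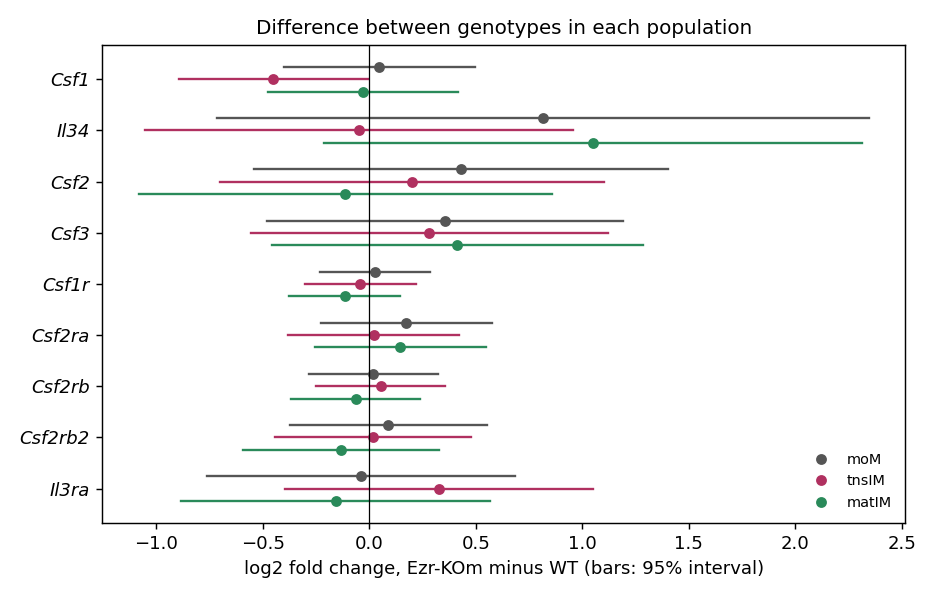
Log2 fold change of Ezr-KOm against WT (horizontal axis) for the 9 genes in moMs, tnsIMs and matIMs; points are the edgeR estimates and bars their 95% intervals (n = 3 per group). All intervals include 0 apart from Csf1 in tnsIMs (-0.89 to -0.01), and those of Csf1r and Csf2rb are the narrowest.

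Receptors and signalling genes around the group were counted from fixed lists. Of 10 further ligands and receptors, 7 were tested (Il3, Il5 and Ptprz1 were not), and from WT moMs to matIMs 3 were higher and 1 was lower, beside 24.8% of all tested genes called in either direction and 11.4% called lower. The median log2 fold change of the 7 was -0.06, beside 0.01 for all genes. Csf3r, the G-CSF receptor, fell from 389 CPM in WT moMs to 129 in matIMs (log2 fold change -1.59, adjusted p = 0.000101 by edgeR), the direction of its ligand. Kit, the stem cell factor receptor, rose from 12.7 to 59.6 CPM, and Flt3, the receptor that dendritic cells depend on, rose from 34.6 to 127 CPM. Markers of other cells also differed between the populations. The 6 markers of mature migratory dendritic cells summed to 35.3 to 47.1 CPM in WT moMs, 309 to 377 in tnsIMs and 4873 to 6538 in matIMs, and the 7 of conventional dendritic cells to 129 to 164, 169 to 296 and 817 to 1584. Flt3 itself is 1 of these 7, and the other 6 summed to 90.9 to 128, 162 to 281 and 725 to 1443 CPM. The 8 neutrophil markers summed to 359 to 520.1 CPM in WT moMs, 202 to 293 in tnsIMs and 166 to 192 in matIMs. Mmp8, a collagenase gene, was the 1 marker of the 8 with a lower mean in matIMs, at 377 CPM in WT moMs, 37.1 in tnsIMs and 11.4 in matIMs. The other 7 had higher means in WT matIMs than in moMs and summed to 56.8 to 97.9, 164 to 255 and 154 to 183 CPM in the same order. Their part in the decreases of Csf3, Csf3r and Csf1r and in the rises of Kit and Flt3 was not tested.

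Of 14 genes of CSF1R signalling and shedding, 2 were higher and 6 lower in WT matIMs than in moMs, with a median of -0.38. In this contrast 24.8% of all genes were called in either direction and 11.4% were called lower, which is the background of the counts that follow as well. Pik3cd, a catalytic subunit of phosphoinositide 3-kinase, was lower (-0.95), Pik3r1, its regulatory subunit, was higher (1.13), and Pstpip2 was lower (-0.96). Of 13 genes of JAK-STAT signalling downstream of the GM-CSF, IL-3 and G-CSF receptors, 4 were higher and 3 lower, with a median of 0.25. Stat5a, a transcription factor activated by the GM-CSF receptor, rose from 33.3 to 99.7 CPM (log2 fold change 1.58, adjusted p = 4.54e-06), and Jak2, the kinase bound to the beta chain, rose from 219 to 502 CPM (1.19, adjusted p = 0.000404, both edgeR). Socs2, a feedback inhibitor of these receptors and also 1 of the 6 mature migratory dendritic cell markers, rose from 21.1 to 111 CPM (2.40). Stat5a, Jak2 and Socs2 were named for the smallest p of the list. The part of the dendritic cell marker differences in these rises was not tested. Its genes with lower means in WT matIMs were Stat5b (118 to 89.5 CPM), Jak1 (601 to 434), Stat3 (776 to 568), Socs3 (3191 to 2139) and Ptpn11 (31.5 to 29.7). Of 9 transcription factors of the receptor promoters, 0 were higher and 3 lower with a median of -0.37, namely Tfec (-1.67), Ets2 (-1.03) and Cebpb (-1.10), while Spi1, which encodes PU.1, was at 618 CPM in moMs and 575 in matIMs (-0.10, adjusted p = 0.740 by edgeR). In Ezr-KOm mice the counts higher and lower from moMs to matIMs were 3 and 2 of 7, 2 and 7 of 14, 3 and 0 of 13, and 0 and 4 of 9, beside 23.3% of all genes called in either direction and 10.7% called lower. Between genotypes, 0 of these 43 genes passed in any population by edgeR. Pim1, on the JAK-STAT list, was still higher in each Ezr-KOm library than in any WT library of the same population. It was at 408 to 1146 CPM against 246 to 392 in moMs and 470 to 1067 against 196 to 334 in tnsIMs. In matIMs it was at 521 to 946 against 221 to 487. Groups lacked overlap for 8.52%, 5.81% and 10.1% of all genes in these comparisons. Other listed genes lacked overlap in some populations too, with higher levels in Ezr-KOm. Egr2 did so in moMs (664 to 769 against 509 to 601 CPM) and matIMs (450 to 553 against 401 to 436). So did Sdc1 in moMs (72.3 to 86.3 against 51.2 to 60.0) and Elf1 in tnsIMs (57.8 to 76.9 against 47.3 to 57.0). Kitl did so in matIMs (3.65 to 4.06 against 1.86 to 3.55). Pim1 was picked from the lists after the fact, and the listed genes were not counted in full this way.

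The genes whose log2 CPM followed each member most closely over the 18 libraries were also listed. This is a description over libraries that may share animals and fall into 3 populations. Tspan9 was nearest to Csf1 (Pearson r = 0.96) and P3h4, a collagen-modifying protein, to Il34 (0.95). Nbl1, a secreted BMP antagonist, was nearest to Csf2 (0.93). Csf3 was followed by Irak3, a negative regulator of Toll-like receptor signalling (0.95), and Csf1r by the LPS-responsive receptor gene Tlr2 (0.97). For the other receptors the highest values were lower, with Ccdc9 for Csf2ra (0.87), Rlim for Csf2rb (0.88), Hnrnpul1 for Csf2rb2 (0.86) and Rabac1 for Il3ra (0.85). Within tnsIMs alone the values were 0.90 for Tspan9 and 0.75 for P3h4, and within matIMs they were 0.04 and 0.38. Within moMs Irak3 had 0.99. Tlr2, which was nearest to Csf1r over all libraries, had r = -0.06 with it within matIMs.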

How the data were processed

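Per the labels and the study's methods, cDNA was made with SMART-Seq v4 and Nextera XT kits and sequenced on a NovaSeq as 150-base pairs. The authors aligned reads with STAR 2.7.9a to GRCm39 and deposited raw counts per gene (Gencode M29), with the strand column not given in the sources used here. The members and gene lists were chosen with earlier results of these data known. Here counts were filtered (filterByExpr, minimum count 10), TMM-scaled and fitted over all 18 libraries with edgeR 4.0.16 (R 4.3.3) quasi-likelihood tests, 1 mean per group, and Benjamini-Hochberg adjustment over 15811 genes at 0.05. The procedure was tested on simulated data. Alternatives were DESeq2 1.42.0, other scalings and filters, replicate blocks and leaving out libraries. Replicates were separate samples, and none were identical. Same-numbered libraries of both genotypes deviated together (r from 0.10 to 0.32 over 9 pairs). The main fit held no term for the replicate number, so its standard errors, intervals and p-values do not use this pairing. The numbers were taken as pairs only in the replicate blocks and for Csf1 in tnsIMs. Same-numbered libraries of 2 populations of a genotype gave 0.09 to 0.40, and the labels do not say whether they came from the same mouse. Exon lengths, overlaps and sequences came from GRCm39 with Gencode M39. Named were all members, the 3 genes of each list with the smallest p from WT moMs to matIMs, the 3 most correlated genes per member (log2 CPM, prior count 2; the nearest is given), and Ezr. Spi1, Pim1, other genes named from the lists or marker sets, and the overlapping genes were outside this rule and added afterwards. Counting intervals cover counting error only. The promoter of Csf3 is not reported here.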

Additional observations from a re-analysis of the deposited data

How the results depend on the processing

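Across all 9 genes, the 21 differences that passed the edgeR test kept their direction in all 290 recomputed values (DESeq2, upper-quartile scaling, library totals, no filter or a filter of 10 counts in every library, a replicate block, the compared groups alone and each library left out), and 281 also kept their side of the threshold. The 9 losses concerned Csf2 and Csf2ra. Those of Csf2 and 4 of those of Csf2ra came from leaving out single libraries and are given with the results. The others were Csf2ra from WT tnsIMs to matIMs with library totals (-0.52, adjusted p = 0.0541, edgeR) and with the compared groups fitted alone (-0.60, adjusted p = 0.115).

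Pairing the libraries by replicate number, with the replicate block, changed no call of a member, for example -0.54 for Csf2ra from WT tnsIMs to matIMs. It raised the number of JAK-STAT genes called from Ezr-KOm moMs to matIMs from 3 to 6, or 8 with a block for each replicate number within a genotype, and library totals gave 5. Of all genes, 23.3% were called in that contrast, and 29.3%, 30.3% and 23.2% under these settings in turn. The number of transcription factors called from WT moMs to matIMs went from 3 to 5 with either block, beside 24.8% of all genes without and 30.9% and 31.6% with them. The causes of these shifts were not tested.

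Values that had not passed the test could change sign. Over the 9 genes, 52 of 87 such values did so in 128 of 1325 recomputed values, with a largest reversed size of 0.54. With library totals Csf2rb2 from Ezr-KOm tnsIMs to matIMs was 0.028. Leaving out single libraries gave ranges of -0.13 to 0.18 for Csf1 from WT moMs to matIMs, -0.80 to 0.058 for Csf3 and -0.37 to 0.47 for Il3ra from Ezr-KOm moMs to tnsIMs, and -0.16 to 0.12 for Csf2rb2 and -0.74 to 0.12 for Il3ra from Ezr-KOm tnsIMs to matIMs. Between genotypes they were -0.078 to 0.11 for Csf1r in moMs, -0.038 to 0.54, -0.17 to 0.74 and -0.13 to 0.79 for Csf3 in moMs, tnsIMs and matIMs, and -0.66 to 0.16 for Csf2 in matIMs. The number of members passing the study's rule in moMs was 0 to 1. Depth limits Il34, with 1 to 125 reads per library, and Csf2, with 13 to 347, and 3 libraries per group bound the receptors no closer than the intervals given.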

Other observations

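Csf3 was highest in the library numbered 2 in all 6 groups, with 59.0 CPM (moMs), 71.8 CPM (tnsIMs) and 15.5 CPM (matIMs) in WT and 106, 86.4 and 22.9 CPM in the same order in Ezr-KOm. The same number was highest in all 6 groups for 98 of 15811 tested genes (0.62%), and any single number was for 805 (5.09%). Csf2 was highest in replicate 2 in 5 of 6 groups and Csf2ra in 4 of 6, while no other member exceeded 4 of 6 for any number. These orders were noticed in the data and were not tested.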
